A study of Mus musculus with 8 samples.

Results

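The genes described here are 10 interferon-stimulated genes of mouse macrophages (Mϕ). They comprise the ISG15 pathway (Isg15, Uba7, Ube2l6, Herc6 and Usp18) and a group of antiviral effectors and sensors (Isg20, Rsad2, Mx1, Mx2 and Ifih1). They were chosen by name and not by their values, though with earlier results of these data known. All 10 were found among the 55359 genes listed. All 10 also passed the filter for testing, a mean of at least 10 normalized counts over all samples, which left 16309 genes. A normalized count is the number of reads on a gene divided by a size factor of the sample.

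Total RNA-seq was performed on bone marrow-derived Mϕ (BMDMs) of wildtype C57BL/6 mice, adult and of both sexes, differentiated with M-CSF and GM-CSF. BMDMs were left naïve (Ctrl), co-cultured for 16 h with apoptotic NIH-3T3 fibroblasts at 5 apoptotic cells per Mϕ in the presence of 10 nM dimerizer (Eff), exposed for 6 h to LPS (100 ng/mL) plus IFNγ (100 U/mL, group LPS), or co-cultured, washed and then stimulated in the same way (LPSEff). The fibroblasts were a modified line whose caspase-8 is switched on by the dimerizer, and all groups were selected for CD45+ cells before RNA isolation. Whether the groups without fibroblasts received the dimerizer is not given in the sources used here. Each group held 2 samples, named 1 and 2 below. Nothing states that they came from separate mice or cultures, so p-values measure the spread between these samples, which may be technical.

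ISG15 is a ubiquitin-like protein that is attached to other proteins during an interferon response. UBA7 activates it, UBE2L6 carries it, and in mice the ligase HERC6 transfers most of it. USP18 removes ISG15 again and also dampens signalling at the type I interferon receptor. Among the effectors, ISG20 is an exonuclease that degrades RNA, RSAD2 (viperin) is a radical SAM enzyme that makes a chain-terminating nucleotide, and MX1 and MX2 are dynamin-like GTPases that trap viral components. IFIH1 (MDA5) is a helicase that senses long double-stranded RNA and starts interferon production through MAVS. Type I interferon acts on such genes at the interferon-stimulated response element (ISRE), and IFNγ acts at gamma-activated sites (GAS).

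The promoters of the members carried these motifs to a different extent, and the stretches just before the start sites are shown for 3 genes with a match and for 1 gene without. RefSeq promoters of build GRCm38.p6, from 250 bases before to 50 bases after the start site, were found for 7 of the 10 genes (Isg15, Uba7, Ube2l6, Herc6, Isg20, Rsad2 and Ifih1) and not for Usp18, Mx1 and Mx2. They were searched on both strands for the core of an ISRE, GAAANNGAA (TTCNNTTTC on the other strand), and for a GAS, TTCNNNGAA. The 2 motifs can share bases. In the lines that follow, each sequence is the 150 bases before the start site, written 5′ to 3′ on the strand of the gene, with motif matches in capitals.
Isg15 (chr4:156200819-156200968, minus strand): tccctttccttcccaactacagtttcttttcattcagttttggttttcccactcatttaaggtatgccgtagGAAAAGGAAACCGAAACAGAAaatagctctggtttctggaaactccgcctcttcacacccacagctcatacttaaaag
Rsad2 (chr12:26456453-26456602, minus strand): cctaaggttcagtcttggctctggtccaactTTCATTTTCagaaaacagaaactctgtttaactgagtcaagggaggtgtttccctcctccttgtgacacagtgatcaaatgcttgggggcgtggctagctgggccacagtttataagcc
Ifih1 (chr2:62646256-62646405, minus strand): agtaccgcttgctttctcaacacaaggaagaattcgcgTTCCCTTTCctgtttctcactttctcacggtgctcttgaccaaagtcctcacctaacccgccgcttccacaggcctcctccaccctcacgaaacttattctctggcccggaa
Ube2l6 (chr2:84798678-84798827, plus strand): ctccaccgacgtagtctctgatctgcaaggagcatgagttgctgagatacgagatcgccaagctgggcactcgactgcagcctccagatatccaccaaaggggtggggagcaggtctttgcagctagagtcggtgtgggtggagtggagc

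Isg15 held 3 overlapping ISRE cores, which began at positions -78, -72 and -66 from the start site and together form the run of 21 capital letters above. Rsad2 held 1 core at -119 and Ifih1 held 1 at -112, both read on the opposite strand, and a further core of Ifih1 began at position 32 after the start site. An ISRE core was thus found in 3 of the 7 genes, and in 8.56% of all 32851 promoters of the same length. A GAS motif was found in 1 of the 7 genes, at -73 in the first of the 3 promoters of Isg20, and in 8.3% of all promoters. No match to either motif was found in these windows for Uba7, Ube2l6 and Herc6. A match is a run of letters and not a measured binding site.

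The samples held between 3481288 and 12020918 reads, with the shallowest in Ctrl. In that sample 3 reads correspond to 5.71 normalized counts. All 9 Mϕ markers tested were present in every group, among them Adgre1, Csf1r and Ptprc (CD45), with summed levels from 106438 to 162354 normalized counts. The summed level of 12 fibroblast markers was 531 and 559 normalized counts in the Ctrl samples and 2153 and 4316 in Eff. It was 4541 and 2340 in LPS, mostly from Lox, while LPSEff had 7073 and 6234. For 5 dendritic cell markers, mostly Ccr7, the sums were 2001 and 2534 without any treatment (Ctrl) and 1286 and 1576 for Eff. They were 8165 and 15378 for LPS, as compared with 6563 and 6145 for LPSEff. Neutrophil markers summed to between 46.3 and 287 normalized counts per sample and lymphocyte markers to at most 16.8. In bulk RNA, fewer cells of a type and less RNA per cell cannot be told apart.

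Upon stimulation of naïve Mϕ with LPS/IFNγ, all 10 genes rose. The increases ranged from 5.17-fold for Uba7 to 241-fold for Rsad2. Together the 10 genes took 0.0257% (95% exact binomial interval 0.024 to 0.0274) and 0.0241% (0.0232 to 0.025) of the reads in Ctrl, and 0.795% (0.788 to 0.802) and 0.608% (0.603 to 0.613) in LPS. These intervals cover counting error only. Across all genes tested, 12.4% rose at an adjusted p under 0.05 in this comparison and 11.6% fell. Genes that rose made up 51.5% of the calls, but 24.8% when samples were scaled to equal totals. The median log2 fold change of the members was 4.26, against -0.01 over all genes tested. Fold changes and tests come from limma on log2(normalized count + 1), adjusted over all tested genes by Benjamini-Hochberg, and this scale understates the change of genes with few reads.

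**Figure D1:**
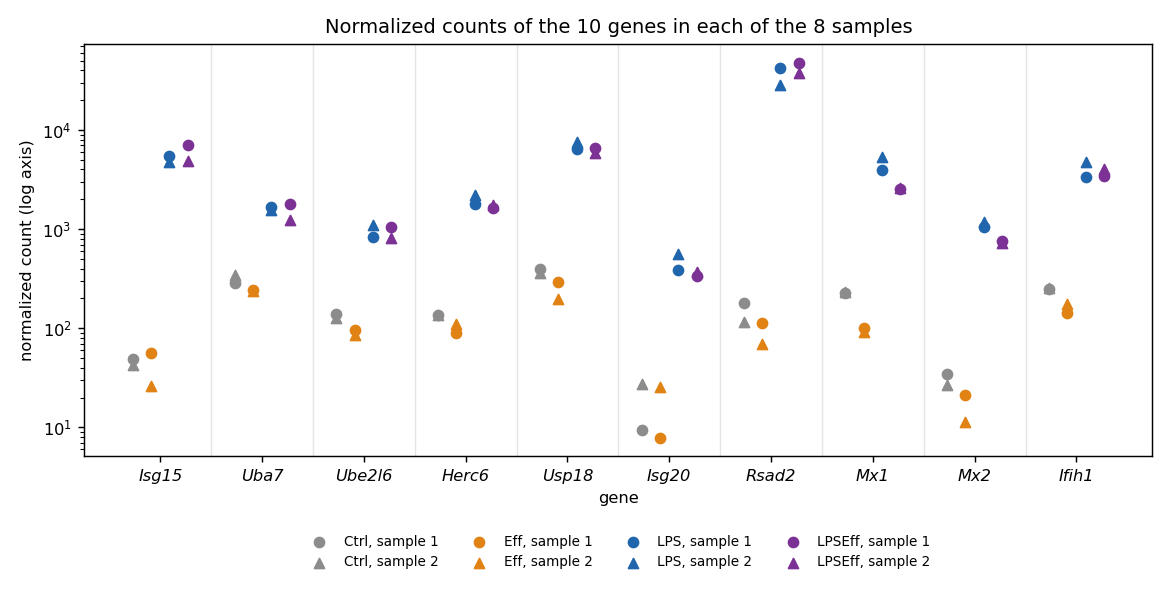
Normalized counts of the 10 genes (log axis) in each of the 8 samples, with circles for sample 1 and triangles for sample 2 of Ctrl, Eff, LPS and LPSEff. In each gene the 4 stimulated samples lie above the 4 unstimulated samples, and Rsad2 reaches 47731 normalized counts in LPSEff sample 1. The share of all genes with such a separation was not counted.

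Isg15, the modifier itself, is encoded at chr4:156283883-156285303 of GRCm39 (minus strand, ENSMUSG00000035692). Its normalized counts were 49.5 and 42.8 in Ctrl and 5497 and 4713 in LPS. Both LPS samples thus exceeded both Ctrl samples by about 2 orders of magnitude, with a fold change of 108 (95% interval 62.6 to 187, limma adjusted p = 2.48e-05). Of the 50-base words in its annotated transcripts, 23.9% also occur in other annotated genes or on their opposite strand (Gm46878 and Gm9706), so that its counts depend on how such reads were assigned.

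The enzymes that attach ISG15 rose less than the modifier. Uba7, the activating enzyme (chr9:107852704-107861262), was measured at 286 and 344 normalized counts in Ctrl and at 1688 and 1559.8 in LPS. Its increase of 5.17-fold (95% interval 3.66 to 7.29, limma adjusted p = 0.000256) was the smallest among the 10 genes. Ube2l6, the conjugating enzyme (chr2:84628630-84640783), had 139 and 128 normalized counts in Ctrl and 842 and 1094 in LPS, a rise of 7.15-fold (5.06 to 10.1, limma adjusted p = 0.000114). Herc6, the ligase (chr6:57557932-57642597), rose most of these 3 enzymes. It had 137 and 135 normalized counts in Ctrl and 1775 and 2235 in LPS, which corresponds to 14.6-fold (10.6 to 19.9, limma adjusted p = 2.48e-05). The 95% intervals of Uba7 and Ube2l6 overlapped with each other, but not with that of Herc6. Of the 50-base words in the annotated transcripts of Ube2l6 and Herc6, 24.1% and 13.9% also occur in other annotated genes or on their opposite strand.

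Usp18, the protease that reverses the modification (chr6:121222848-121247877), rose from 394 and 365 normalized counts in Ctrl to 6428 and 7503 in LPS. The fold change was 18.3 (12.8 to 26.0, limma adjusted p = 3.11e-05), which is lower than that of Isg15 and higher than those of Uba7 and Ube2l6 by intervals that do not overlap. A gene on the opposite strand, Gm44148, shares 4.62% of the exon bases of Usp18 and was counted with up to 1043 reads per sample.

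Rsad2 (chr12:26492745-26506451, minus strand) showed the largest increase of the 10 genes. Its normalized counts were 179 and 116 in Ctrl and 42308 and 28716 in LPS. Thereby it moved from ranks 6569 and 8322 among all listed genes in the Ctrl samples to ranks 14 and 29 in the LPS samples, and its fold change of 241 (95% interval 144 to 403, limma adjusted p = 9.5e-06) was the 11th largest increase of all genes tested. Rsad2 alone held 62.9% and 49.7% of the normalized counts of the 10 genes in LPS, as compared with 10.5% and 6.92% in Ctrl.

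The dynamin-like GTPases lie close to each other on chromosome 16 of GRCm39, Mx1 at chr16:97248235-97264107 (minus strand) and Mx2 at chr16:97336508-97362100 (plus strand). Laboratory strains such as C57BL/6 are known to carry disrupted copies of both, and RefSeq lists both as transcribed pseudogenes, whereas GENCODE lists them as protein coding. Transcripts of both were measured in all samples. Mx1 had 227 and 234 normalized counts in Ctrl and 3960.3 and 5378 in LPS, which is 20.0-fold (14.7 to 27.2, limma adjusted p = 1.29e-05). Mx2 started lower, at 34.3 and 26.6 normalized counts, and reached 1048 and 1172 in LPS, 35.5-fold (22.0 to 57.3, limma adjusted p = 3.69e-05). The excess of Mx1 over Mx2 in the same sample was 6.61 and 8.78 in Ctrl and 3.78 and 4.59 in LPS, as a ratio of normalized counts. Mx1 and Mx2 share 50-base words, 5.64% of those of Mx1 with other genes and 4.43% of those of Mx2 with Mx1.

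Ifih1, the RNA sensor (chr2:62425714-62476607, minus strand), had 248 and 256 normalized counts in Ctrl and 3377 and 4802 in LPS. It rose 15.9-fold (11.2 to 22.6, limma adjusted p = 3.19e-05). Isg20, the exonuclease (chr7:78562598-78570153), was the member with the fewest reads. Its 9.52 and 27.2 normalized counts in Ctrl, from 5 and 47 reads, increased to 389 and 561 in LPS. Accordingly, its fold change of 27.2 had the widest interval of the 10 genes (10.7 to 68.9, limma adjusted p = 0.00099).

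To compare the levels of the genes with each other, normalized counts were divided by the length of the canonical transcript in kb. In Ctrl, Usp18 had the highest level per kb (221 and 205), followed by Uba7 (89.2 and 107), Mx1 (84.1 and 86.7), Ube2l6 (88.7 and 81.5) and Isg15 (63.3 and 54.7). Ifih1 (41.6 and 43.0) and Rsad2 (47.3 and 30.6) came next, and Herc6, Isg20 and Mx2 were lowest. In this order, Mx1 and Ube2l6, Ifih1 and Rsad2, and Isg20 and Mx2 were neighbours whose samples overlapped. In LPS the order changed. Rsad2 (11187 and 7593) and Isg15 (7029 and 6027) led, before Usp18 (3611 and 4215) and Mx1 (1469.5 and 1996), and none of these 4 neighbours overlapped. Ifih1, Ube2l6, Uba7, Mx2, Herc6 and Isg20 followed with levels per kb from 274 to 807. The ratio of Isg15 to Usp18, the modifier and its protease, was 0.286 and 0.267 per kb in Ctrl and 1.95 and 1.43 in LPS, so that Isg15 was below Usp18 in each Ctrl sample and above it in each LPS sample. With the length of all merged exons in place of the canonical transcript, an alternative added after the data had been seen, the samples of Rsad2 (9759.6 and 6624) and Isg15 overlapped in LPS, and in Ctrl Uba7 took the fifth place in place of the second.

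**Figure D2:**
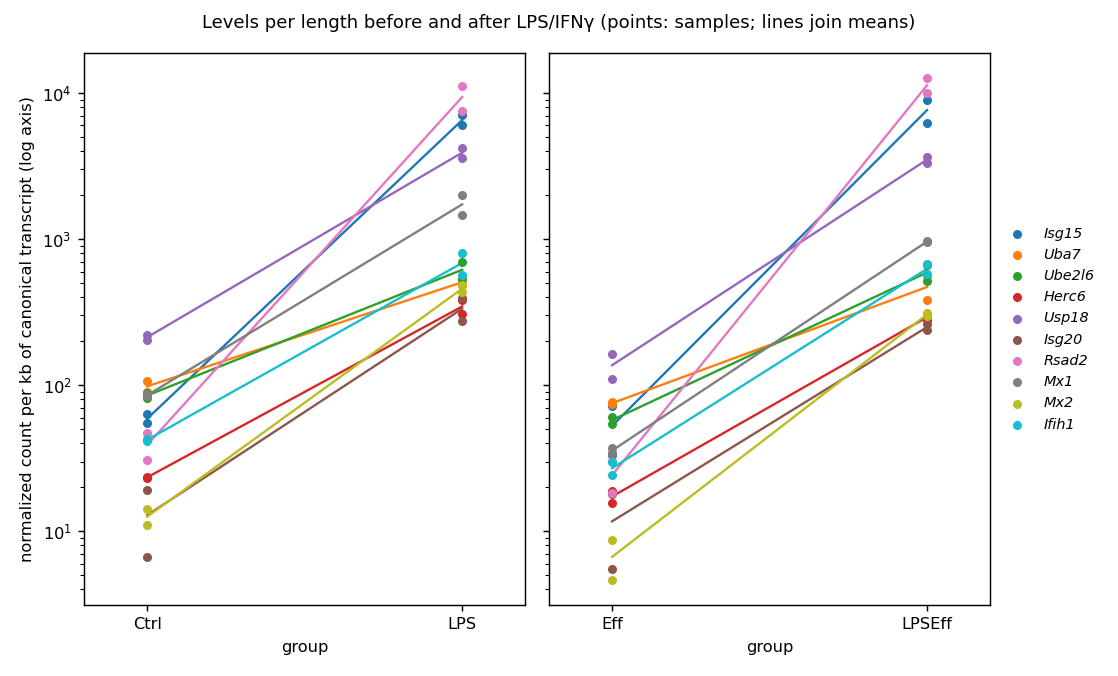
Normalized counts per kb of canonical transcript (log axis) of the 10 genes before and after LPS/IFNγ, for naïve Mϕ (Ctrl, LPS) on the left and efferocytic Mϕ (Eff, LPSEff) on the right. Points are samples and lines join group means. The lines of Rsad2 and Isg15 cross that of Usp18, which is highest in Ctrl and in Eff.

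Next, the response was examined in Mϕ that had been co-cultured with apoptotic cells. Again all 10 genes rose upon LPS/IFNγ, from 6.12-fold for Uba7 to 473-fold for Rsad2, in a comparison in which 10.7% of all tested genes rose and 8.95% fell. Genes that rose made up 54.6% of the calls here, 21.8% with equal totals and 43.9% with quantile normalization. Their median log2 fold change was 4.62, against 0.01 over all genes tested. The members took 0.0177% (0.0168 to 0.0187) and 0.015% (0.0142 to 0.0158) of the reads in Eff and 0.817% (0.812 to 0.822) and 0.635% (0.629 to 0.640) in LPSEff. The order of the fold changes was similar to that in naïve Mϕ, in that Rsad2 and Isg15 had the largest and Uba7 and Ube2l6 the smallest.

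Isg15 had 56.1 and 26.1 normalized counts in Eff and 7047 and 4896 in LPSEff, an increase of 149-fold (95% interval 86.3 to 258, limma adjusted p = 1.52e-05). Its Eff samples differed from each other more than its Ctrl samples did. Uba7 had 244 and 238 normalized counts in Eff and 1777 and 1232 in LPSEff (6.12-fold, 4.33 to 8.63). Ube2l6 rose from 95.5 and 85.4 to 1043 and 808 normalized counts (10.1-fold, 7.12 to 14.2). Herc6 rose from 90.3 and 110.1 to 1619 and 1763 (16.8-fold, 12.3 to 22.9). As in naïve Mϕ, the attaching enzymes therefore gained less than the modifier. Usp18 had 293 and 196 normalized counts in Eff and 6540.3 and 5927 in LPSEff (25.9-fold, 18.2 to 36.8).

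Rsad2 had 114 and 69.2 normalized counts in Eff and 47731 and 37825 in LPSEff, and the former was the highest value of any member in any sample. Its fold change was 473 (95% interval 282 to 793, limma adjusted p = 4.29e-06), the 6th largest increase of all genes tested. Among all listed genes it ranked 8072 and 9795 in Eff and 15 and 21 in LPSEff. Mx1 had 99.9 and 92.45 normalized counts in Eff and 2569.9 and 2617 in LPSEff (26.7-fold, 19.7 to 36.3). Mx2 had 21.0 and 11.3 in Eff and 752 and 725 in LPSEff (44.9-fold, 27.9 to 72.4). Both were lower in LPSEff than in either LPS sample. Ifih1 had 144 and 177 normalized counts in Eff and 3448 and 4004 in LPSEff (23.1-fold, 16.3 to 32.8). Isg20 had 7.89 and 25.4 in Eff and 339 and 372 in LPSEff (23.2-fold, 9.16 to 58.9), and in both unstimulated groups sample 1 was the lower. The limma adjusted p of these members was at most 0.00135.

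**Figure D3:**
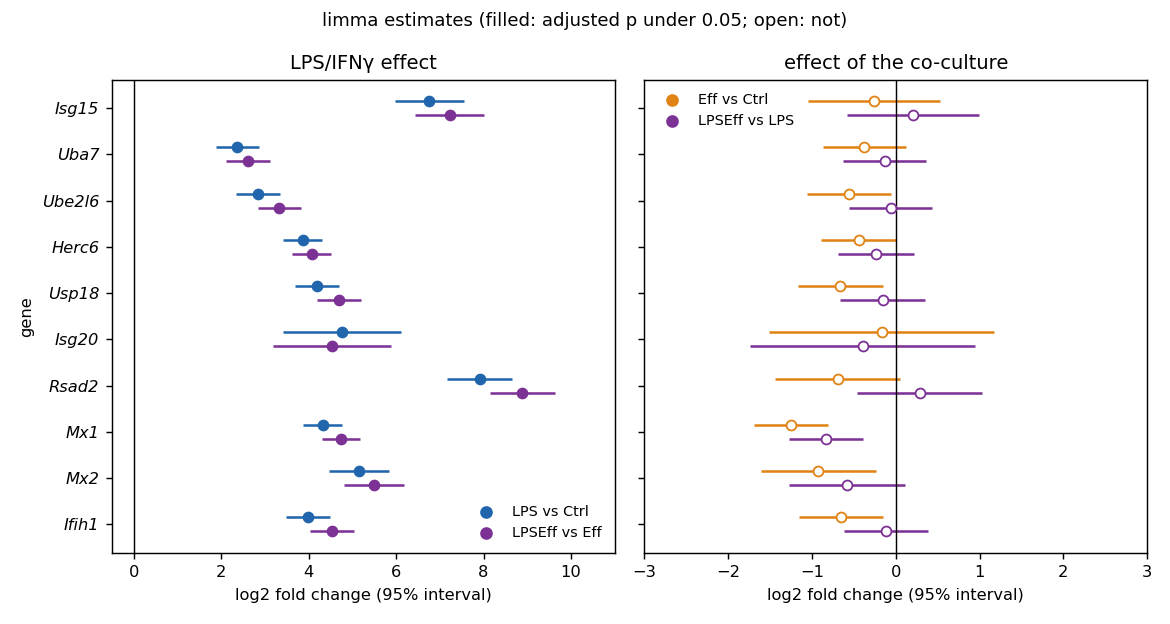
Log2 fold changes (points) with their 95% intervals (lines) from limma for the 10 genes, filled where the adjusted p is under 0.05 and open otherwise. On the left, the effects of LPS/IFNγ in naïve and efferocytic Mϕ lie between 2.37 and 8.89. On the right, the effects of the co-culture lie between -1.25 and 0.29, and none is called.

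Efferocytosis without stimulation was then compared with naïve Mϕ. All 10 genes had a lower estimate in Eff than in Ctrl, whereas 51.5% of all tested genes did, and their median log2 fold change was -0.61, against -0.01 over all genes. However, none of them was called by limma at an adjusted p under 0.05 (0.0368% of all genes were called lower). At an unadjusted p under 0.05, 5 of the 10 genes were lower (Ube2l6, Usp18, Mx1, Mx2 and Ifih1), compared with 2.6% of all genes. In 8 of the 10, all but Isg15 and Isg20, both Eff samples were below both Ctrl samples, which also held for 17.8% of all genes. edgeR called none of the 10 (0.0123% of all genes lower) and DESeq2 called Mx1 (0.255% of all genes lower). With the sample number as a block, limma called Rsad2, Mx1 and Ifih1 lower (adjusted p of 0.0266, 0.00209 and 0.0422). Nothing states what this number marks, and that fit called 159 of all tested genes lower. This comparison and that of LPS with Ctrl share the Ctrl samples. The estimate of Isg15 turned to 0.28 without Eff sample 2, and that of Isg20 to 0.54 without Ctrl sample 2 and to 0.62 without Eff sample 1.

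Mx1 differed most of the members in unstimulated Mϕ. Its 99.9 and 92.45 normalized counts in Eff were below the 227 and 234 in Ctrl, and within each group the samples were close to each other. The log2 fold change was -1.25 ± 0.19 (SE), or 0.42 times the Ctrl level (95% interval 0.309 to 0.571), with a limma adjusted p of 0.0553. Among the settings under which it passed the threshold were the fits without LPS sample 1 or LPS sample 2, with limma adjusted p of 0.0413 and 0.0405. It also passed in limma without the filter on low values (adjusted p = 0.0454), with equal totals (0.0338) and with quantile normalization (0.042), and with DESeq2 (adjusted p = 0.000193). Mx2 was at 0.527 times the Ctrl level (0.327 to 0.85, limma adjusted p = 0.528), Rsad2 at 0.62 times (0.37 to 1.04, 0.868), Usp18 at 0.633 times (0.445 to 0.901, 0.562) and Ifih1 at 0.636 times (0.448 to 0.902, 0.562), with the interval and the limma adjusted p in parentheses. Among the ISG15 enzymes, Ube2l6 was at 0.68 times the Ctrl level (0.481 to 0.962), Herc6 at 0.735 times (0.538 to 1.0) and Uba7 at 0.771 times (0.546 to 1.09). Isg15 (0.484 to 1.45) and Isg20 (0.351 to 2.26) had intervals that reach from a decrease to an increase. The fibroblast marker sums were higher and the dendritic cell marker sums lower in Eff than in Ctrl, without overlap, and their part in these differences was not tested.

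Under LPS/IFNγ, 8 of the 10 genes had a lower estimate in efferocytic than in naïve Mϕ, as compared with 50.3% of all genes, but the median log2 difference was small (-0.14, against -0.003 over all genes). limma called none of the 10 (0.0429% of all genes were called lower). At an unadjusted p under 0.05, Mx1 was lower (4.11% of all genes were). In 4 genes (Herc6, Isg20, Mx1 and Mx2) both LPSEff samples were below both LPS samples, which held for 17.0% of all genes. edgeR called none of the members (0.0613% of all genes lower) and DESeq2 called Mx1 (adjusted p = 0.0106), with 0.527% of all genes lower. With the sample number as a block, limma also called Mx1 lower (adjusted p = 0.0121), and 433 of all tested genes were called lower. Several of these estimates hung on single samples, as Isg15 turned to -0.06 without LPSEff sample 1, Uba7 to 0.13 and Ube2l6 to 0.12 without LPSEff sample 2, and Ube2l6 to 0.125 and Ifih1 to 0.14 without LPS sample 2.

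Mx1 was again the member with the largest difference. Its level in LPSEff was 0.562 times that in LPS (95% interval 0.413 to 0.764, limma adjusted p = 0.135), with 2569.9 and 2617 against 3960.3 and 5378 normalized counts. Mx2 was at 0.667 times (0.413 to 1.07) and Isg20 at 0.76 times (0.3 to 1.93). Herc6 was at 0.848 times (0.621 to 1.16), Usp18 at 0.897 times (0.63 to 1.28), Uba7 at 0.912 times (0.646 to 1.29), Ifih1 at 0.923 times (0.65 to 1.31) and Ube2l6 at 0.957 times (0.677 to 1.35). Isg15 (1.15 times, 0.667 to 2.0) and Rsad2 (1.22 times, 0.727 to 2.04) had estimates above LPS. For each of the 9 genes other than Mx1 the interval included no difference. The dendritic cell marker sums were lower and the fibroblast marker sums higher in LPSEff than in LPS, without overlap, and their part was not tested.

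Whether the LPS/IFNγ effect differed between naïve and efferocytic Mϕ was tested as an interaction. No member was called by limma, edgeR or DESeq2, each of which called 0.0% of all genes, and none of the 10 had an unadjusted p under 0.05 in limma (1.91% of all genes had). In 9 of the 10 genes the LPS/IFNγ effect was estimated to be larger in efferocytic Mϕ, as in 51.5% of all genes, and Isg20 was the exception. The difference was largest for Rsad2, with a log2 difference of 0.98 (95% interval -0.08 to 2.03), and smallest in size for Herc6, with 0.21 (-0.43 to 0.84). For Mx1 it was 0.42 (-0.21 to 1.05). The estimates of Isg15 (-0.07) and Mx2 (-0.08) turned without Eff sample 2 and that of Uba7 (-0.02) without LPSEff sample 1. That of Isg20 turned without Ctrl sample 1 (0.48), LPS sample 2 (0.04) or Eff sample 2 (0.56). The interaction shares its Ctrl and Eff samples with the comparison of Eff with Ctrl, in which all 10 genes had a lower estimate. A larger effect here is not a higher level after stimulation. In LPSEff against LPS, 8 of the 10 had a lower estimate (50.3% of all genes).

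Most further genes of the ISG15 system were not called upon stimulation, which also held for most genes tested. Over all genes, 12.4% were called higher and 11.6% lower in LPS against Ctrl. A list of 11 further genes comprised the ligases Trim25 and Arih1, the other HERC genes and proteases reported to act on ISG15, of which 10 could be tested. After LPS/IFNγ, Trim25, a ligase for ubiquitin and ISG15, was called and rose by 1.74 on the log2 scale (limma adjusted p = 0.00029), from 1188 and 1287 normalized counts in Ctrl to 4034 and 4212 in LPS. The other 9 were not called by limma, with log2 fold changes from -0.91 (Usp14) to 0.55 (Herc3). The median of the list was 0.23. The number called depended on the setting. edgeR and DESeq2 each called 2 genes of the list (1 higher and 1 lower), and limma called 2 with a filter at a mean of at least 50 and 3 with equal totals or quantile normalization (1 higher and 2 lower). limma also called 2 without LPS sample 2, without LPSEff sample 1 and without LPSEff sample 2. In LPSEff against Eff, Trim25 was the gene of the 10 called by limma. There limma called 4 with equal totals (1 higher and 3 lower) and 2 with quantile normalization. Over all genes, limma called 10.7% higher and 8.95% lower there, and 1216 and 4362 genes with equal totals. In LPS against Ctrl, equal totals called 1420 of all genes higher and 4315 lower, and quantile normalization 1844 and 2302. edgeR called 2128 of all genes higher and 1863 lower in LPS against Ctrl, and DESeq2 2237 and 1717.

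Of 30 genes of other ubiquitin-like systems (ubiquitin, NEDD8, SUMO, UFM1, URM1 and FAT10), 6 rose, 3 fell and 21 were not called in LPS against Ctrl, with a median log2 fold change of 0.07. Over all genes 12.4% rose and 11.6% fell, so that the 3 that fell were about as frequent as over all genes. The calls in this list hung on single samples, with 3 genes called without Ctrl sample 1 and 5 without Ctrl sample 2 or LPS sample 2, and 4 were called with only the groups compared. The largest change was that of Ubd, which encodes FAT10, at 5.71 and 8.1 normalized counts in Ctrl and 38.8 and 197 in LPS (log2 fold change 3.51, limma adjusted p = 0.0131). Its value in Ctrl sample 1 rests on 3 reads, its LPS samples lay far apart, and its SE was 0.77. Sae1, a subunit of the SUMO-activating enzyme, and Sumo3 fell (-1.44 and -1.17). In efferocytic Mϕ, 5 of the 30 rose and 2 fell (10.7% and 8.95% of all genes), but 2 genes in all were called without Eff sample 1, without Eff sample 2 or without LPSEff sample 1, and 4 without LPSEff sample 2. With samples scaled to equal totals, the balance turned to 1 gene (Ubd) that rose and 6 that fell in LPS against Ctrl.

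**Figure D4:**
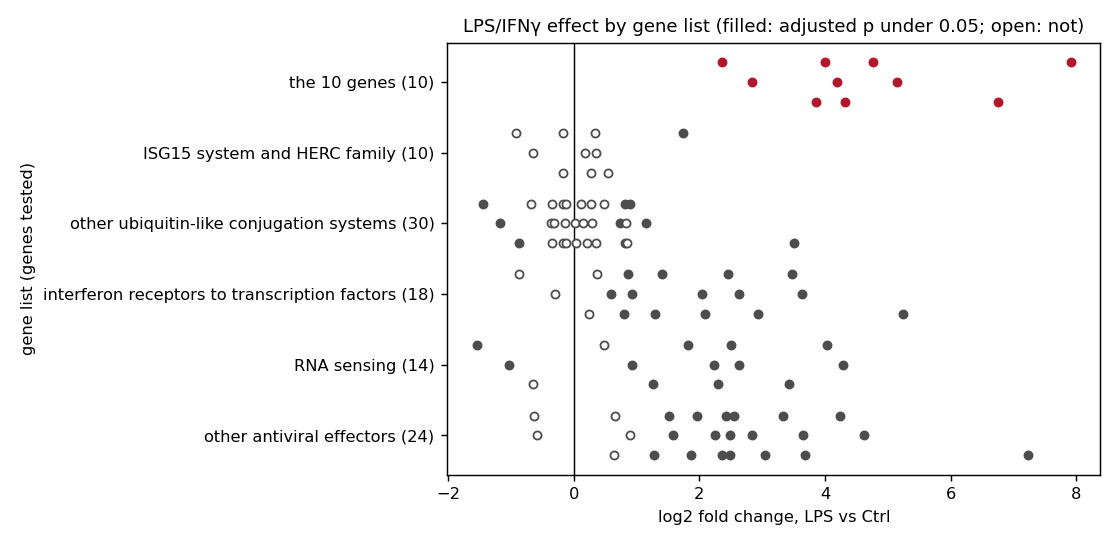
Log2 fold changes of LPS against Ctrl for the 10 genes (red) and 5 lists of related genes (grey), filled where the limma adjusted p is under 0.05 and open otherwise. Height within a row has no meaning. The 10 genes lie between 2.37 and 7.91, and 9 of the 10 further genes of the ISG15 system and HERC family are open points around 0.

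By comparison, the genes from interferon receptors to transcription factors and those of antiviral defence mostly rose. Over all tested genes, 12.4% rose in LPS against Ctrl. Among the genes from receptors to transcription factors, 14 of 18 tested genes rose in LPS and 4 were not called. Large changes were those of the transcription factors Irf7 (log2 fold change 5.25) and Irf1 (3.64), and of Socs1 (2.93), an inhibitor of JAK kinases. Of 14 genes of RNA sensing, 10 rose, led by the nucleic acid sensors Zbp1 (4.28), Dhx58 (4.04), Rigi (3.43) and Tlr3 (2.63). Trim65 fell by 1.54 and Mavs fell by 1.03 on the log2 scale. These 2 of 14 genes compare with 11.6% of all tested genes that fell. The sensor that signals through MAVS, Ifih1, rose as given above. MAVS is the shared adaptor of IFIH1 and RIG-I, and TRIM65 is a ligase that acts on IFIH1. Of 24 other antiviral effectors 19 rose and none fell. Cmpk2, a nucleotide kinase whose gene lies next to Rsad2, had the largest change (7.22), followed by Ddx60 (4.63), Helz2 (4.24) and Rtp4 (3.69). Cmpk2 was measured at 109 and 41.1 normalized counts in Ctrl and 14204 and 7244 in LPS. The genes named from these 3 lists had a limma adjusted p of at most 0.0197. In efferocytic Mϕ, 14 of the 18, 10 of the 14 and 20 of the 24 genes rose, as compared with 10.7% of all tested genes. Trim65 was called lower there by limma (log2 fold change -1.44, adjusted p = 0.0292), with 85.5 and 38.1 normalized counts in LPSEff. Neither edgeR nor limma with only the groups compared called any of the 14 lower there. Mavs was not called by limma (log2 fold change -0.64, limma adjusted p = 0.0649). Of the 18, 9 were called there without LPSEff sample 1.

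The 96 tested genes of the 5 lists were also compared for the co-culture. limma called none of them in Eff against Ctrl, where 14 had an unadjusted p under 0.05, of which 13 were lower in Eff (2.6% of all genes were). edgeR called none and DESeq2 called 1, with 204 called over all genes. With the sample number as a block, limma called 6 of the 96, with 436 called over all genes. Of the 24 antiviral effectors, 21 had an estimate below 0, as compared with 51.5% of all genes, and their median log2 fold change was -0.40, against -0.01 over all genes. In LPSEff against LPS limma, edgeR and DESeq2 called none of the 96, and 2 had an unadjusted p under 0.05, of which 1 was lower in LPSEff (4.11% of all genes were). The limma fit with the block called 2 of the 96 in this comparison, with 1137 called over all genes.

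Finally, the genes with the pattern most like each member were identified as those with the smallest root-mean-square difference of centred log2 values over the 8 samples. For 9 of the 10 members the 3 closest genes were outside the set, while for Mx1 Usp18 was the second closest (0.349), after Phf11a (0.199). Isg15 was closest to Oasl1 (0.332), Uba7 to Tapbp (0.133), Ube2l6 to Stat2 (0.165), Ifih1 to Ifi209 (0.106), Mx2 to Gm12250 (0.301) and Rsad2 to Il1b (0.429). Isg20, with the fewest reads, had no closer gene than AW112010 at 0.421. The closest genes to Herc6 (Gm45193, 0.074) and to Usp18 (Gm44148, 0.129) share exon bases with them, on the same and on the opposite strand, respectively. After these, Herc6 was closest to Ifi209 (0.144) and Usp18 to Parp14 (0.183). These distances describe the same 8 libraries and carry no test.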

How the data were processed

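Total RNA was depleted of rRNA and sequenced in 8 samples of 4 groups, which were assigned by the sample titles. The authors used cutadapt for trimming, bowtie2 against rRNA, STAR for mapping (build mm39), htseq-count for counting and DESeq2 for normalization. Versions are not given in the sources used here. The deposited table gives the normalized count of every gene, a signal on a linear scale. In each sample 100% of them were whole multiples (tolerance 0.01 reads) of the worth of 1 read, which gave the reads (median 8431112.5 per sample). Gene names came from GENCODE vM39, which named 98.9% of the genes.

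limma 3.58.1 (R 4.3.3) was fitted with a trend to log2(normalized count + 1) of 16309 genes and all 4 groups, with 4 residual degrees of freedom, and adjusted by Benjamini-Hochberg. A gene was called at an adjusted p under 0.05. The scripts were tested on simulated data. Alternatives were another pseudocount, filter, scaling or set of samples, the replicate number as a block, edgeR 4.0.16 and DESeq2 1.42.0 on the reads, and each sample left out. Per kb levels used the canonical transcript. The members, the 5 lists and the markers were chosen with earlier results of these data known. All 10 members were named. Of each list, up to 4 genes with the largest called changes in LPS against Ctrl were named, apart from 2 genes not reported here, and the range of the uncalled genes, Trim65 and Mavs were added after their values had been seen. Of the genes most like a member, the 3 closest were considered.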

Additional observations from a re-analysis of the deposited data

How the results depend on the processing

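All 10 genes were called higher in LPS against Ctrl and in LPSEff against Eff under each of 10 other settings and with each of the 8 samples left out, and none was called in the interaction under the 9 of these settings that give one or with any of the 8 samples left out. In Eff against Ctrl, 1 member (Mx1) was called without the filter on low values (a mean above 0), with samples scaled to equal totals, with quantile normalization and with DESeq2. With samples left out it was called by limma without LPS sample 1 or LPS sample 2, so the number of members called ranged from 0 to 1. In LPSEff against LPS, DESeq2 called 1 member (Mx1), and leaving out a sample called 0. Scaling to equal totals moved the median log2 fold change of all genes to -0.41 in LPS against Ctrl and to -0.43 in LPSEff against Eff. The members' median log2 fold changes were then 3.86 and 4.18. Quantile normalization moved the median of all genes to -0.10 in LPSEff against Eff. The cause of these changes was not tested. Samples 1 and 2 of the groups carry shared numbers, but nothing states what the number marks. Same-numbered deviations from the group means correlated in each of the 6 pairs of groups (lowest r 0.404, highest 0.595). With the number as a replicate block, 3 members were called lower in Eff against Ctrl (Rsad2, Mx1 and Ifih1, limma adjusted p of 0.0266, 0.00209 and 0.0422) and 1 in LPSEff against LPS (Mx1, 0.0121), while the calls over all genes went from 41 to 436 and from 126 to 1137. Of the 10 further genes of the ISG15 system, the block called 3 in LPS against Ctrl and 3 in LPSEff against Eff. Of the 30 genes of other ubiquitin-like systems it called 12 and 11. Over all 16309 genes tested it called 6717 and 6033, so these counts do not set the lists apart from other genes. The number of calls over all genes in Eff against Ctrl was 204 with DESeq2, 14 with edgeR, 79 without the filter, 20 with a mean of at least 50 and 9 with only the groups compared. In LPSEff against LPS it was 368 with DESeq2 and 66 with only the groups compared. In LPS against Ctrl the block took it from 3910 to 6717, and in LPSEff against Eff the block took it from 3213 to 6033 and equal totals to 5578. Leaving out samples moved the limma calls over all genes further. In Eff against Ctrl they fell from 41 to 0 without Eff sample 2, 4 without Ctrl sample 1, 8 without Ctrl sample 2 and 9 without either LPSEff sample. In LPSEff against LPS they fell from 126 to 0 without LPSEff sample 1, 6 without LPSEff sample 2, 17 without LPS sample 2 and 56 without LPS sample 1, and to 63, 60 and 73 without Ctrl sample 1, Ctrl sample 2 and Eff sample 2. In LPS against Ctrl they were 2076 without Ctrl sample 1 and 2233 without Ctrl sample 2. In LPSEff against Eff they were 1567 without Eff sample 1 and 1593 without LPSEff sample 1, as well as 1790 without Eff sample 2 and 2037 without LPSEff sample 2. Depth limits Isg20 most, with 5 reads in Ctrl sample 1.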
